A study of Mus musculus with 3 samples.

Results

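The regions described here were ERα-bound regions of the mouse mammary gland that carried an exact AP1 site and no estrogen response element (ERE). They numbered 742 of the 6243 regions on chromosomes 1 to 19 and X that were bound in both biological replicates, or 11.9% (95% exact interval 11.1 to 12.7%). A shared region was the stretch covered by a peak of each replicate, with an overlap of at least 1 bp. The 400 bp around its midpoint were read from the mouse genome, and a region was a member when this window held TGACTCA or its reverse complement TGAGTCA and no match to GGTCANNNTGACC with up to 1 mismatch on either strand. Membership used sequence alone, so the peak scores and the positions relative to genes played no part in it.

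ERα is a nuclear receptor that binds DNA directly at the ERE, an inverted repeat of a short half-site, once estradiol is bound. AP1 is a dimer of Fos and Jun family proteins that binds its own palindromic site. Besides binding EREs, ERα can be held at AP1 sites through contacts with proteins already on the DNA, which is known as tethering. A ChIP library does not tell these modes apart, because crosslinking recovers direct and indirect contacts alike.

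The series holds 2 ERα ChIP-seq replicates and 1 input library, all from the #4 mammary glands of wild-type BALB/c mice (BALB/cJ in the study's methods) labelled as 6 weeks old. The study's methods place ovariectomy at 6 weeks of age, followed by 10 days of rest. Every library came from glands taken 2 h after 100 ng of 17β-estradiol. Each replicate pooled glands of 6 mice, no ChIP library of vehicle-treated glands was analysed here, and the tissue was the whole gland with its fat pad, so that the cell types contributing to a peak cannot be told apart. The peak lists hold 9607 peaks in replicate 1 and 6819 in replicate 2. Each peak has a score, which is −10 times the log10 of its p-value, and every listed score is at least 80, the study's cutoff. The numbers of reads behind the peaks are not in these lists, and 2 pools give no estimate of the spread between animals. Every p-value below therefore measures the spread over regions, peaks, windows, AP1 sites or chromosomes. Tests on AP1 sites counted each site singly, also where 1 window held several.

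Of the 6243 shared regions, 1044 held an AP1 site, and 71.1% of these lacked an ERE. A further 1942 regions held an ERE, 302 of them together with an AP1 site and 1640 without, and 3559 regions held neither motif. Among the members, 672 had 1 AP1 site, 67 had 2 and 3 had 3, for 815 sites in all. Every chromosome contributed members, from 7.14% of the shared regions on chromosome X to 15.5% on chromosome 16.

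The AP1 sites of the 10 members with the highest lower score of both replicates are printed first, since they are the best supported examples, each with 12 bases on either side. They were read from the plus strand of NCBIM37, which is the mm9 assembly, so they are the reference sequence of C57BL/6J and not that of the BALB/cJ animals. Capitals mark the 7 bp AP1 site, and each line is named by the gene with the nearest transcription start site (TSS).
A230028O05Rik, chr16:25158515-25158545: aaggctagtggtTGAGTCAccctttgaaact
Gas6, chr8:13507059-13507089: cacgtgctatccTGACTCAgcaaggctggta
Gm6276, chr17:75509991-75510021: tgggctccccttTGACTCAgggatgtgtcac
Stk39, chr2:68060481-68060511: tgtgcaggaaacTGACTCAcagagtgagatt
Gm13985, chr2:117574771-117574801: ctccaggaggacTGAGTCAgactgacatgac
Gm10248, chr14:23904137-23904167: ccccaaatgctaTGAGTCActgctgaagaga
Gm12518, chr4:56432571-56432601: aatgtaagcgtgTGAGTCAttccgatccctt
Lifr, chr15:7087630-7087660: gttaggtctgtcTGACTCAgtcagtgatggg
Gm13004, chr4:136952936-136952966: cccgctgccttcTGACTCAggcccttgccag
Jdp2, chr12:86911315-86911345: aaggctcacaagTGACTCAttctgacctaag

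Of these 10 windows, 7 also held an ERE-like match with 2 mismatches, just outside the limit of 1. Over all members the share was 53.2%, and so few windows do not set the strongest members apart. Examples of these matches are printed below, with capitals at the bases equal to the ERE consensus.
Jdp2, chr12:86911268-86911280: GGgCAaacTGtCC
Gm13004, chr4:136952886-136952898: GGaCgcccTGACC
Stk39, chr2:68060562-68060574: GGaCActcTGACt
Gm13985, chr2:117574785-117574797: aGTCAgacTGACa
The match near Gm13985 overlaps the AP1 site, since TGAGTCA ends in letters that an ERE half-site shares. The window near Gm13004 holds 2 AP1 sites, and its central 300 bp are given to show both in place (chr4:136952830-136953129).
Gm13004: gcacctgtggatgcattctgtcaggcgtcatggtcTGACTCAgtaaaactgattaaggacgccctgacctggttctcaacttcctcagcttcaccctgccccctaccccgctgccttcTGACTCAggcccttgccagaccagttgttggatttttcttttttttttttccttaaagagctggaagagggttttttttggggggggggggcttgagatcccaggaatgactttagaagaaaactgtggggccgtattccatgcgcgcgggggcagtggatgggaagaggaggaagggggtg

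The window is narrower than many regions, and 10 of the 742 members held an ERE inside the shared region but outside the 400 bp. These included 4 of the 10 members with the highest lower scores, and 8 of the 238 members that scored at least 200 in both replicates. The EREs of those 4 regions are printed with capitals at the bases equal to the consensus.
Gas6, chr8:13506768-13506780: GGTCAgggTGACC
A230028O05Rik, chr16:25158970-25158982: GGTCAccaTGAaC
Gm10248, chr14:23904175-23904187: tGTCAcagTGACC
Gm12518, chr4:56432226-56432238: tGTCAgccTGACC
The ERE near Gas6 matched the consensus at all 10 specified bases and lay 404 bp from the midpoint and 300 bp from the AP1 site. That near Gm10248 lay 217 bp from the midpoint and 29 bp from the AP1 site. For these regions, absence of an ERE holds for the window and not for the whole bound stretch. Member widths ran from 29 to 1633 bp with a median of 550 bp, so wide regions had more sequence outside the window. Width was not accounted for, and the share of other classes with such an ERE is not given here. The counts of 4 and 8 therefore do not set strong members apart.

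The AP1 site was more frequent in bound windows than beside them, and its share did not differ beyond counting error between windows with and without an ERE. An AP1 site was present in 16.7% of all shared regions and in 7.10% of 12040 windows of the same length placed 5 kb to either side and clear of any peak (difference 9.62 percentage points, 8.60 to 10.7, Fisher's exact test, two-sided, p = 4.76e-86). Counted by the rule for members, the shares were 11.9% of shared regions and 7.04% of flanking windows (exact p = 3.60e-27). Of the regions with an ERE, 15.6% held an AP1 site, against 17.3% of the regions without an ERE (difference −1.70 points, −3.63 to 0.31, exact p = 0.0993). The flanks of the members themselves held an AP1 site in 7.83% of 1430 windows, against 7.003% of the flanks of the other regions (exact p = 0.25).

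ERα peaks over an AP1 site without an ERE scored well below peaks over an ERE, and within a small margin of peaks with neither motif. In replicate 1 the members ranged from 80.35 to 3181 with a median of 205, and in replicate 2 from 80.33 to 3100 with a median of 158. The regions with an ERE had medians of 338 and 256.2, and the regions with neither motif had medians of 221 and 159. The ranges overlapped almost completely, but the cutoff of 80 set their lower end and the highest scores included ties at 3100. The ranges therefore say little about the classes, which differed in how their scores were distributed.

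The mean log2 score of the members was lower than that of the ERE regions by 0.67 in replicate 1 (difference −0.67, 95% interval −0.79 to −0.56, n = 742 and 1942 regions, p = 2.34e-10) and by 0.62 in replicate 2 (−0.62, −0.72 to −0.53, p = 2.57e-11). These are differences from a linear model with errors clustered by chromosome, and they correspond to scores at 0.627 and 0.65 of the ERE regions. Against regions with neither motif the differences were −0.09 (−0.19 to 0.01, n = 742 and 3559 regions, p = 0.0747) and −0.03 (−0.11 to 0.06, p = 0.507). Both intervals included 0, but with a 200 bp window the same contrasts stood clear of it, at −0.21 and −0.16 (n = 461 regions with an AP1 site and no ERE, p = 0.00268 and 0.00462).

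Among regions with an ERE, the intervals for an AP1 site also included 0. Regions with both motifs differed from regions with an ERE alone by −0.03 (−0.24 to 0.17, n = 302 and 1640 regions, p = 0.75) in replicate 1 and by 0.01 (−0.17 to 0.19, p = 0.911) in replicate 2. Their medians were 345 and 257, against 336 and 255 for the ERE alone. The difference made by an AP1 site with and without an ERE was itself compared, and the interaction was 0.06 (−0.20 to 0.32, n = 6243 regions, p = 0.645) and 0.04 (−0.18 to 0.25, p = 0.721). Between the classes that both hold an AP1 site, the ERE came with scores 1.56 times (1.33 to 1.84) and 1.55 times (1.37 to 1.75) as high.

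**Figure D1:**
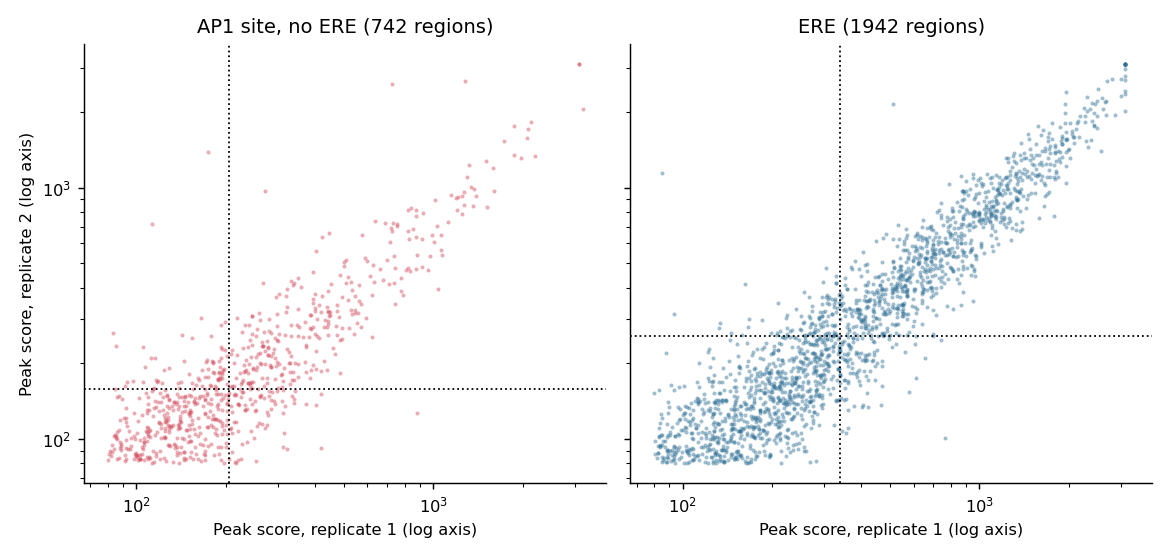
Peak score in replicate 1 (horizontal) against replicate 2 (vertical), both on log axes, for the 742 regions with an AP1 site and no ERE (left) and the 1942 regions with an ERE (right). Each point is 1 shared region and the dotted lines are the class medians, at 205 and 158 on the left and 338 and 256.2 on the right. Both clouds span nearly the same range, whose lower end is the cutoff of 80 and whose highest scores include ties at 3100.

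Members scoring at least 200 in both replicates, a p-value of 1e-20 or lower in each, numbered 238 of 742 (32.1%), where 41.7% of all shared regions did. The share was 57.7% among ERE regions (difference −25.6 points, −29.6 to −21.6, Fisher's exact test p = 5.15e-33) and 35.0% among regions with neither motif (p = 0.137). Among the 10% of shared regions with the highest replicate 1 scores were 5.66% of the members, against 18.4% of the ERE regions and 6.32% of the regions with neither motif. For replicate 2 these shares were 6.06%, 18.7% and 6.10%. When all shared regions were ranked by the lower score and divided into 10 groups of equal size, the members made up 14.1% of the weakest group (88 of 624) and 7.04% of the strongest (44 of 625). The share with an ERE went from 22.0% to 59.0% over the same range. The classes exclude each other, so a rising ERE share leaves less room for the members. Regions with an AP1 site, with or without an ERE, made up 17.3% of the weakest group and 15.2% of the strongest.

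**Figure D2:**
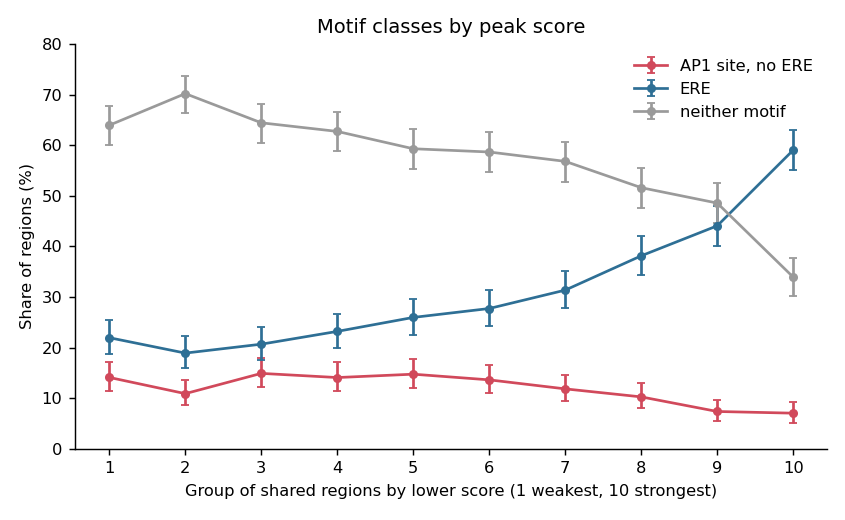
Share of shared regions (vertical, %) in each motif class, by group of equal size ranked on the lower of both scores (horizontal, 1 weakest to 10 strongest). The bars are exact 95% intervals, which cover counting error only. The share with an AP1 site and no ERE lies between 7.04% and 14.9%, with its low values in the upper groups, while the share with an ERE reaches 59.0% in the strongest group. The classes exclude each other, so a rise in the ERE share lowers what is left for the others.

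The ERE limit of 1 mismatch cut through a gradual scale. Among regions with an AP1 site, the median replicate 1 score was 529 for the 60 regions with a perfect ERE, 338 for the 242 with 1 mismatch, 243 for the 395 with 2, 189 for the 309 with 3 and 162 for the 38 with 4. The corresponding medians in replicate 2 were 390, 252, 177, 144 and 148. The regions just inside and just outside the limit, with 1 mismatch and 2 mismatches, were thus neighbours on this scale. Regions without an AP1 site followed the same steps, with replicate 1 medians of 469, 311, 245, 205 and 175.

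Within the members, 5 features were compared for their scores, and the closeness of the best ERE-like match was the only one of them whose difference stood clear of 0. The 395 members with a match of 2 mismatches exceeded the 347 with 3 or 4 by 0.39 on the log2 scale in replicate 1 (0.28 to 0.51, n = 395 and 347, p = 1.18e-06) and by 0.36 in replicate 2 (0.23 to 0.49, p = 1.03e-05). Such a match was no more frequent in members than in regions with neither motif, at 53.2% and 52.5% (exact p = 0.746). Features of the AP1 site itself gave intervals that included 0. Members with 2 or more sites differed from those with 1 by 0.23 (−0.05 to 0.52) and 0.14 (−0.13 to 0.41). Members with a site within 50 bp of the midpoint differed from the others by −0.08 (−0.23 to 0.07) and −0.05 (−0.22 to 0.12). Members with the 9-bp form of the site differed from the others by 0.00 (−0.15 to 0.16) and 0.04 (−0.09 to 0.17). Members in introns differed from those outside genes by 0.00 (−0.14 to 0.15) and −0.08 (−0.22 to 0.07).

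**Figure D3:**
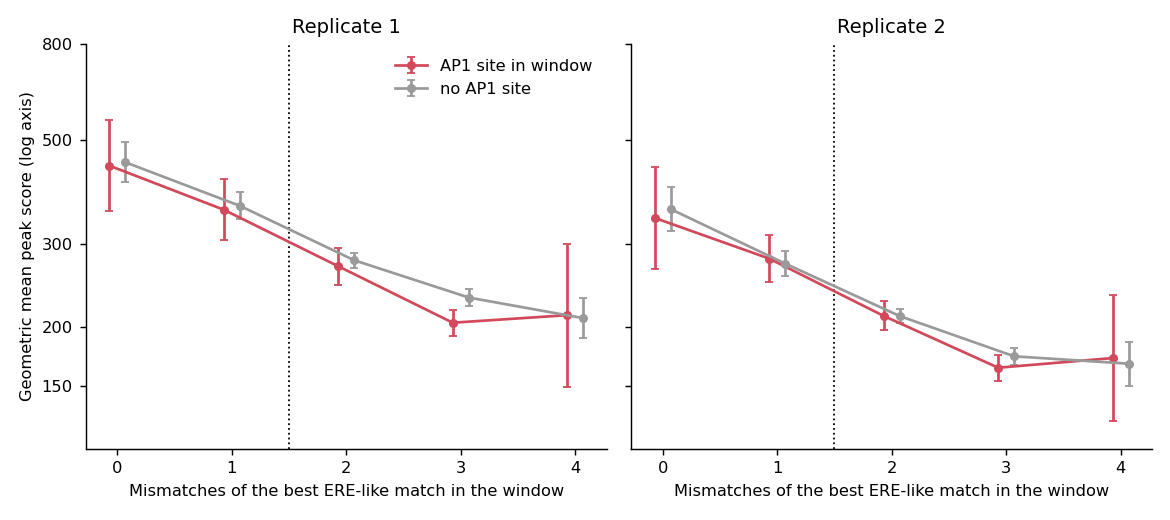
Geometric mean peak score (vertical, log axis) by the number of mismatches of the best ERE-like match in the window (horizontal), for regions with an AP1 site and without one, in each replicate. Bars are 95% intervals clustered by chromosome and the dotted line is the limit of the rule. The scores step down from 0 to 3 mismatches whether or not an AP1 site is present, and the 38 regions with an AP1 site and 4 mismatches have the widest interval.

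The AP1 sites leaned towards the middle of the bound regions, but far less than EREs did. Of the 815 sites in members, 31.8% lay within 50 bp of the midpoint, against 24.0% of 889 sites in flanking windows without an ERE (difference 7.82 points, 3.56 to 12.1, Fisher's exact test p = 3.45e-04). The best ERE lay within 50 bp of the midpoint in 70.4% of the ERE regions. Median distances from the midpoint were 81 bp for the AP1 sites of members, 99 bp for those of the flanks, 78 bp for those of ERE regions and 31 bp for the best ERE. Among members scoring at least 200 in both replicates, the excess over the flanks was 2.89 points (exact p = 0.467).

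**Figure D4:**
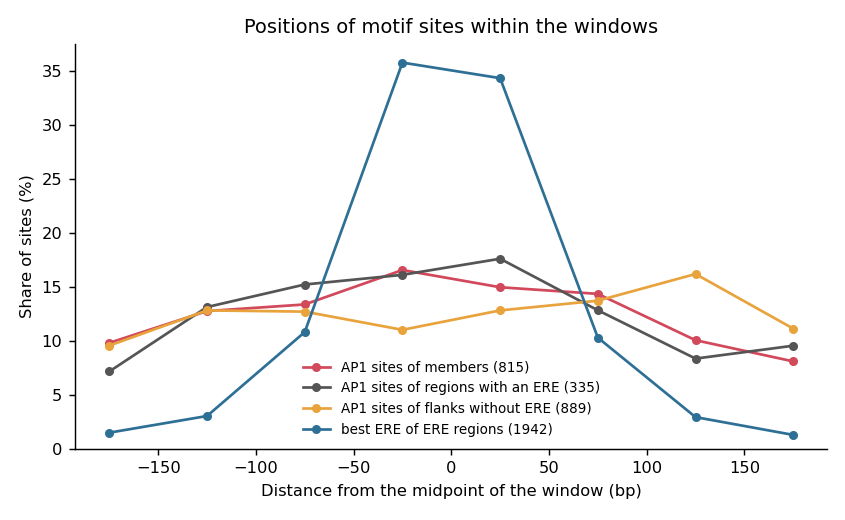
Share of sites (vertical, %) by distance from the midpoint of the window (horizontal, 50 bp bins), with the number of sites in brackets. The bins next to the midpoint hold 16.6% and 15.0% of the AP1 sites of members, while they hold 35.8% and 34.3% of the best EREs.

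The bases around the AP1 sites and the number of sites also differed from the flanks. The longer consensus of AP1 has a purine before the 7 bp and a pyrimidine after it, and 29.8% of the sites in members had this form, against 21.3% of those in the flanks (difference 8.56 points, 4.42 to 12.7, exact p = 5.84e-05). The base just before TGACTCA was T in 11.3% of members' sites and 15.7% of flanking sites, and the base just after was A in 15.1% and 21.9%. Of the members, 9.43% held 2 or more sites, against 4.48% of the flanking windows that held any (exact p = 1.27e-04). Sites in ERE regions had the longer form in 29.6% of cases, close to the members (difference 0.26 points, −5.67 to 5.91).

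Searched for 16 motifs of other factors on both strands, the members and the regions with neither motif gave no difference that passed the test (0 of 16 by Fisher's exact test with Benjamini-Hochberg adjustment). At an unadjusted p under 0.05 only the C/EBP word TTGCNNAA stood apart, in 22.1% of members and 26.8% of regions with neither motif (exact p = 0.00867, adjusted p = 0.139). Over all shared regions it was in 23.9%. The words for FOX proteins, pioneer factors that open chromatin for ERα, were TGTTTAC and TATTTAC and occurred in 15.2% of members, 14.5% of regions with neither motif and 14.0% of all shared regions. The GATA word AGATAA occurred in 23.0%, 20.6% and 20.7%, and the RUNX word TGTGGT in 28.7%, 27.4% and 28.5%.

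Against ERE regions, none of 14 words passed Fisher's exact test, with or without adjustment. The other 2, the extended half-site AGGTCA and the SF1 word CAAGGTCA that includes it, contain the ERE half-site by which the classes were separated, so their lower shares in members follow from the rule and carry no test. AGGTCA was in 58.2% of members and 74.8% of ERE regions, and CAAGGTCA in 7.95% and 12.05%. Over all shared regions they were in 63.0% and 9.35%. Against their own flanks the members held 9 of the 16 words more often and none less often. The half-site had the greatest margin, with 58.2% against 23.0% (35.2 points, 31.0 to 39.3, Fisher's exact test, adjusted p = 1.66e-57), while regions with neither motif held it in 57.6%. An ERE half-site was thus present in most members although the full element was not.

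The other words found more often than in the flanks were, besides SF1 and FOX, PAX2 (GTCACG, 10.4% against 4.13%), the E-box CAGCTG (27.6% against 17.9%), TEAD (CATTCC, 27.0% against 20.2%), AP2 (GCCNNNGGC, 14.6% against 9.23%), C/EBP (22.1% against 17.1%) and the progesterone and glucocorticoid receptor word ACANNNTGT (15.6% against 11.8%). Their shares over all shared regions were 9.16% for PAX2, 27.3% for the E-box, 25.5% for TEAD, 15.3% for AP2 and 16.02% for ACANNNTGT. The PAX2 word can overlap an AP1 site, since TGAGTCA followed by CG contains GTCACG. Part of its excess over the flanks may therefore follow from the rule. The words for STAT (TTCNNNGAA), SP1 (GGGCGG), ETS (CCGGAAG), the cAMP response element (TGACGTCA) and NF1 (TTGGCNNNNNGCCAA), with GATA and RUNX, made up the remaining 7. These 5 occurred in 14.8%, 8.49%, 1.89%, 0.404% and 0% of the members and in 14.4%, 9.47%, 2.19%, 0.529% and 0.0801% of all shared regions. In base composition the members had fewer CpG dinucleotides per window than regions with neither motif, with means of 4.75 and 5.75 (difference −1.003, −1.40 to −0.60, n = 742 and 3559 regions, p = 4.62e-05).

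Members were rarer at promoters than the other classes over all shared regions. A region counted as proximal when its midpoint lay from 1 kb upstream to 400 bp downstream of the nearest TSS of any annotated gene. That held for 23 members (3.10%), where 6.5% of all shared regions were proximal, for 6.23% of ERE regions (difference −3.13 points, −4.68 to −1.33, Fisher's exact test p = 0.00105) and for 7.36% of regions with neither motif (p = 6.72e-06). CpG content, which is high at many promoters, was lower in members as given above, and its part in the position was not tested. Among regions scoring at least 200 in both replicates the difference from ERE regions was −2.08 points and did not pass the test (exact p = 0.253). The median distance to a TSS was 18.7 kb for members, 14.5 kb for ERE regions and 17.4 kb for regions with neither motif.

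At other positions the differences from ERE regions varied in size, and the largest in points was outside protein-coding genes (8.57 points). Farther upstream, within 100 kb, lay 42.2% of members and 37.3% of ERE regions (exact p = 0.0213), and downstream within 100 kb 43.0% and 46.1% (p = 0.153). Beyond 100 kb of any TSS lay 11.7% of members, near the 11.2% of all shared regions, and 10.3% of ERE regions (exact p = 0.295). Introns of protein-coding genes held 288 members (38.8%), where the share of all shared regions was 42.8%, and 45.1% of ERE regions (difference −6.29 points, −10.4 to −2.11, exact p = 0.00352). Outside protein-coding genes lay 58.6% of members and 50.1% of ERE regions (exact p = 7.00e-05), and in exons 2.56% and 4.84% (p = 0.00718). The upstream difference did not pass the test in 7 of 13 alternatives, among them replicate 1 alone (2.26 points, exact p = 0.199). It was lost when only TSSs of protein-coding genes were used, at −0.05 points (exact p = 1), while the share beyond 100 kb then differed by 5.95 points (p = 4.92e-04). The intron difference turned to 0.31 points (exact p = 0.952) when only EREs without mismatch counted.

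**Figure D5:**
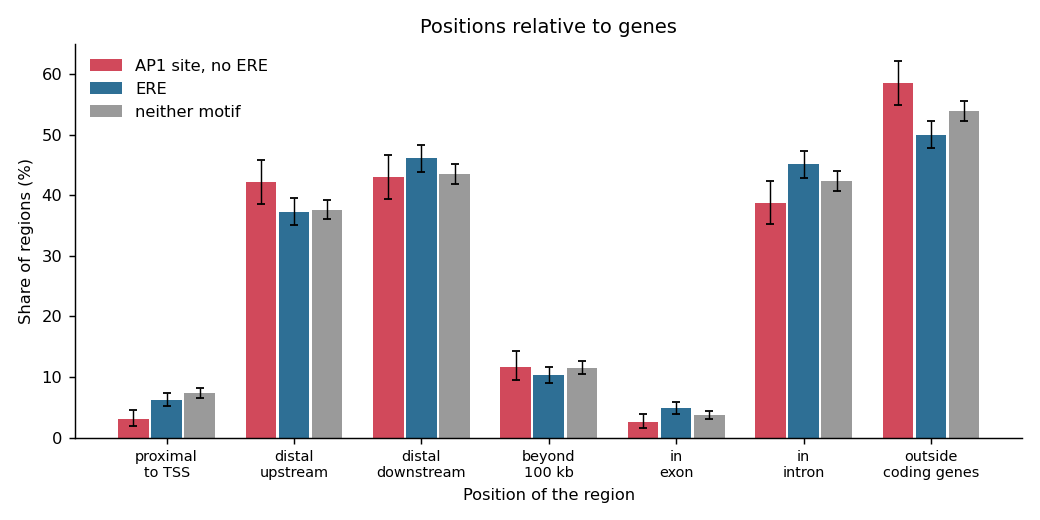
Share of regions (bars from 0, vertical axis in %) in each position relative to genes, for regions with an AP1 site and no ERE, with an ERE, and with neither motif; error bars are exact 95% intervals. The first 4 positions are relative to the nearest TSS and the last 3 relative to protein-coding gene bodies, and the AP1 class has its lowest bar against the others at the proximal position, 3.10% against 6.23% and 7.36%.

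The 23 proximal members had lower scores of 86.73 to 341, with a median of 168, and 19 lay at protein-coding genes. The member at Cyp2s1, a cytochrome P450 gene, was 26 bp upstream of its TSS and scored 475 in replicate 1 and 341 in replicate 2. The one at Alox15, which encodes a lipoxygenase, was 129 bp upstream and scored 545 and 325. Ehd1, a gene for a membrane recycling protein, had 2 proximal members, scoring 307 and 179 at 68 bp upstream and 167 and 135 at 853 bp upstream.

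Members lay near other bound regions more often than ERE regions did, and in shares within counting error of those of other regions without an ERE. Within 10 kb of an ERE region lay 80 members (10.8%), beside 9.85% of all shared regions, 7.36% of ERE regions (difference 3.42 points, 1.03 to 6.08, exact p = 0.00486) and 11.01% of regions with neither motif (exact p = 0.897). Within 10 kb of any other shared region lay 31.8% of members, beside 30.1% of all shared regions, 24.8% of ERE regions (difference 7.04 points, 3.24 to 10.95, exact p = 3.02e-04) and 32.6% of regions with neither motif (exact p = 0.698). Another member lay within 10 kb of 40 of the 742 members. Members made up 11.9% of all shared regions, and this count was not compared with other classes.

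The study's lists of genes changed by estradiol in the gland, taken here by identifier only, hold 220 induced and 273 repressed genes, of which 218 and 272 were in the annotation. The nearest gene was an induced one for 22 members (2.96%), where 4.28% of all shared regions had one, and for 4.02% of ERE regions (difference −1.05 points, −2.44 to 0.63, exact p = 0.212). Regions with neither motif had an induced gene nearest in 4.69% (difference −1.73 points, −2.97 to −0.11, exact p = 0.0383). A repressed gene was nearest to 8 members (1.08%), beside 0.785% of all shared regions and 0.978% of ERE regions (exact p = 0.83). The lists come from the same study, though not from these ChIP libraries, and nearness does not link a region to a gene.

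The 22 members pointed to 19 induced genes, 10 of which were also nearest to an ERE region, as were 142 of the 602 genes of all members. The lower scores of the 22 ran from 83.9 to 1334 with a median of 230, and 12 reached 200. Over all members the median was 149, and 32.1% reached 200. Of the 22, 16 had an ERE-like match with 2 mismatches, 10 lay in introns and 2 were proximal. Over all members these shares were 53.2%, 38.8% and 3.10%, and the 22 were not tested against them.

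Jdp2 encodes a Jun dimerization partner and so a member of the AP1 family. It had 2 of the 22 members near induced genes, including the one with the highest lower score. The first, at chr12:86910651-86911620, lay 29230 bp upstream of the TSS and scored 2207 in replicate 1 and 1334 in replicate 2. The second, at chr12:86960240-86960946 in an intron 19625 bp downstream, scored 736 and 419. The AP1 site of the second is printed here with that near Junb, the other AP1 family gene nearest to a member.
Jdp2 intron, chr12:86960621-86960651: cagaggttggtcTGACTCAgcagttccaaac
Junb, chr8:87505208-87505238: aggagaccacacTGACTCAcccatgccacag
The member near Junb, a Jun family gene, lay 2508 bp upstream and scored 130 and 94.2, low in both replicates. The 15 AP1 family genes listed were nearest to 11 shared regions, of which 3, at 2 genes, were members. Of the others, 1 held an ERE and 7 held neither motif. Members made up 11.9% of all shared regions, and so few regions allow no comparison with that share.

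Other members near induced genes had high scores in both replicates. The member in an intron of Chst8, a carbohydrate sulfotransferase gene, scored 1207 and 917 at 6080 bp downstream of the TSS. That of Rybp, a Polycomb component, scored 819 and 671 at 75833 bp downstream. Htra3, a serine protease gene, had 2 members, of which the one with 2 AP1 sites scored 1007 and 606 and the other 144 and 83.9. The member in an intron of Gse1 scored 832 and 465, and it was one of the 10 with an ERE outside the window. The sites of these members and of the promoter member of Cyp2s1 are printed as examples of AP1 sites beside estradiol-induced genes.
Chst8, chr7:35591564-35591594: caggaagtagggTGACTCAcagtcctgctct
Rybp, chr6:100161422-100161452: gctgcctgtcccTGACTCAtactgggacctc
Htra3, chr5:36015866-36015896: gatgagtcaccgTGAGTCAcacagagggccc
Gse1, chr8:123016916-123016946: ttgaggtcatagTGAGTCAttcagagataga
Cyp2s1, chr7:26602044-26602074: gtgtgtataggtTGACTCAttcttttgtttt
In the Htra3 line the second AP1 site stands in lower case just before the capitals.

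Further members lay near St3gal5, which makes ganglioside GM3 (332 and 427, 21281 bp upstream), near B4galt5, a galactosyltransferase gene (303 and 376, 22449 bp upstream), and in an intron of the amino acid transporter gene Slc7a5 (278 and 232). Near Cdkn1a, which encodes the cell cycle inhibitor p21, the member scored 373 in replicate 1 and 138 in replicate 2, at 913 bp downstream of the TSS. Nfil3, a bZIP transcription factor gene, had 2 members, scoring 129 and 143 upstream and 138 and 110 in an intron. The member at the immediate early gene Ier2 scored 164 and 106, and that 20 bp from the TSS of Osgin1 scored 102 and 86.7. The weaker members of this group lay close to the score limit of 80 in 1 or both replicates.

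Of the 8 members nearest to repressed genes, 2 lay upstream of Rassf6, a gene of the Ras association domain family. They scored 265 and 235 at 20953 bp and 439 and 188 at 49497 bp upstream. The member 4241 bp upstream of Ppl, the periplakin gene, scored 373 and 185. Those in introns of Adssl1 and Dtx4 scored 118 and 141 and 206 and 109. The member in an intron of Prlr, the prolactin receptor gene, scored 85.6 and 101, near the limit in both.

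The members with the highest lower scores lay at various distances from a TSS. The members near A230028O05Rik, 98973 bp from the TSS, and near Gas6, a ligand of TAM receptors, 12643 bp upstream, were tied at 3100 in both replicates. The third, nearest to Gm6276, lay in an intron of Ltbp1, which encodes a TGF-beta binding protein, and scored 3181 and 2059. The member in Stk39, a kinase gene, lay 774 bp downstream of the TSS and scored 2124 and 1824. Lifr, the leukemia inhibitory factor receptor gene, held one in an intron 8027 bp downstream, scoring 1732 and 1533. None of the 10 highest was proximal, where only 3.10% of all members were. Of the 10, 3 had their nearest AP1 site within 50 bp of the midpoint, where 250 of the 742 members did. So few regions do not set the strongest members apart in either trait.

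Lists of genes known in the gland were checked by nearest gene. Of 30 AP1 target genes, 4 had a member, namely Ezr, which encodes ezrin (350 and 436, 11556 bp upstream), Tgfa (163 and 111, intron), Vegfa (193 and 82.8) and Cdkn1a. Of 12 luminal genes, 3 had one, Krt19 (884 and 127, 4546 bp upstream), Kit (191 and 118) and Prlr, and of 9 basal genes Trp63 did (184 and 106, intron). The AP1 target, luminal and basal genes were nearest to 15, 14 and 3 shared regions in all. Regions with neither motif made up 8, 10 and 1 of these, and ERE regions 3, 1 and 1. None of the 5 genes that the study tested by ChIP-qPCR (Greb1, Pgr, Fos, Gata3 and Areg) was nearest to a member, but these genes were nearest to only 9 shared regions in all, 3 with an ERE and 6 with neither motif. Genes of adipocytes, fibroblasts, endothelial cells and macrophages had no member either, among 5, 11, 4 and 0 shared regions. With members making up 11.9% of all shared regions, counts of 0 to 4 among so few say nothing about the members. The lists hold between 5 and 30 genes, so these are counts and not shares.

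In all, 655 members had a TSS within 100 kb and pointed to 602 genes, 404 of them protein-coding. Of these genes, 142 were also nearest to an ERE region, 460 were not, and 302 were nearest to no shared region but members. The 142 were 23.6% of the genes of members, and of the 2346 genes nearest to a region with neither motif 20.2% were also nearest to an ERE region. The 302 were 50.2% of the genes of members, where 73.1% of those 2346 genes were nearest to no other class. The classes differ in size, at 742 and 3559 regions, so these shares are not directly comparable. Only 3 genes were nearest to 3 or more members, AC154455.1 with 4, and Gm10248 and Gm14321 with 3 each. The 4 near AC154455.1 lie in introns of Zmiz1, a gene for a coactivator of the PIAS family, which held 5 members among 14 shared regions, with 2 ERE regions and 7 with neither motif. The 5 members of Zmiz1 scored, in replicates 1 and 2, 309 and 161, 243 and 108, 183 and 183, 157 and 105, and 93.2 and 113. Zmiz1 was singled out after the values were seen.

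Peaks over AP1 sites without an ERE were found again in the other replicate less often than peaks over EREs, with a smaller gap among peaks of similar score in replicate 1. In replicate 1, 737 of 1166 such peaks (63.2%) overlapped a replicate 2 peak, against 78.4% of ERE peaks (difference −15.2 points, −18.4 to −11.98, Fisher's exact test p = 2.40e-21) and 59.7% of peaks with neither motif (p = 0.0261). In replicate 2, 735 of 841 (87.4%) overlapped a replicate 1 peak, against 95.5% (exact p = 1.25e-13) and 88.9% (p = 0.232). Within 4 groups of equal size by replicate 1 score, from lowest to highest, the shares were 25%, 54.1%, 86.9% and 99.5% for AP1 peaks and 29.4%, 54.3%, 91.3% and 99.9% for ERE peaks. In the lowest of 4 such groups in replicate 2 they were 66.4% and 80.7% (exact p = 1.53e-04), and in the second 88.8% and 93.6% (p = 0.0404).

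Scores were higher in replicate 1 for 568 of the 742 members and higher in replicate 2 for 172. The mean log2 ratio of replicate 1 to replicate 2 was 0.33 in members, 0.39 in ERE regions and 0.40 in regions with neither motif. The difference from the ERE regions was −0.05 (−0.10 to −0.0026, n = 742 and 1942, p = 0.04) and that from the regions with neither motif −0.06 (−0.10 to −0.03, p = 0.00192). Only 4 members differed more than 4-fold between replicates. They included Krt19, given above, and a member 15872 bp upstream of Gm14321 that scored 174 in replicate 1 and 1389 in replicate 2. The higher score of each of these was seen in 1 replicate only, although both passed the limit of 80.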

How the data were processed

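ERα ChIP-seq peaks came from 2 pooled replicates, with 1 input library. The deposited values are peak scores, which the authors made by aligning reads with BWA to mm9, extending them, and calling peaks in each replicate with MACS at a p-value of 1e-08 (version not given in the sources used here). Every listed score was at least 80, and read depth is unknown from these files. Peaks of both replicates were intersected (at least 1 bp), and the 400 bp around each midpoint was read from NCBIM37, whose chromosome lengths are those of mm9. Genes came from GENCODE M1. Log2 scores were compared by least squares with errors clustered by chromosome (statsmodels 0.14.6), and shares by two-sided Fisher's exact tests with Newcombe intervals of the difference (scipy 1.17.1). Python 3.11.15, numpy 2.4.6, pandas 2.3.3, pysam 0.24.0 and matplotlib 3.10.9 were used. The functions were tested on simulated data. The 16 motifs were adjusted together by Benjamini-Hochberg, and other p-values are unadjusted. Intervals cover counting error or the spread over chromosomes only. Named regions were those with the highest lower scores, those nearest to estradiol-regulated, AP1 family and ChIP-qPCR genes or to genes of marker lists, and genes nearest to 3 or more members. The members and lists were chosen with earlier results of these data known. Alternatives covered score, overlap, window, both motifs, TSS set, covariates, ranks and each replicate alone, and 2 were chosen after seeing the data. No input peaks were used.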

Additional observations from a re-analysis of the deposited data

How the results depend on the processing

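Of 197 alternative values for 17 results, 147 kept their direction and side of 0.05, or stayed within 1.5 times for counts. The score difference from ERE regions kept its sign and its call under every alternative run for it, between −0.77 and −0.36 in replicate 1 and −0.77 and −0.34 in replicate 2 on the log2 scale, and so did the overlap of replicates under the 5 alternatives of window and motif run for it, between −19.1 and −14.0 and between −10.3 and −7.83 points. The proximal difference stayed negative, and its call was lost at a p-value of 1e-20 (−2.08 points). The values below moved, crossed the threshold or changed sign, and the cause was not tested unless the alternative itself keeps fewer regions.

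The number of members was 238 at a p-value of 1e-20, 461 with a 200 bp window, 347 with 2 ERE mismatches allowed and 239 with the 9-bp AP1 consensus. Using 1 replicate alone it was 841 to 1166. The motifs differing from regions with neither motif numbered 1 at 1e-20 and 0 to 1 with a replicate alone. The score difference from regions with neither motif passed 0.05 in replicate 1 at 1e-10 (−0.13), with a 200 bp window (−0.21), a perfect ERE (−0.085) and 2 mismatches (−0.15), and in replicate 2 with a 200 bp window (−0.16). In replicate 2 it changed sign, without passing, at 1e-20 (0.0012), with 600 bp (0.025) and with the 9-bp AP1 site (0.0041). The small difference of an AP1 site beside an ERE changed sign, without passing, in replicate 1 with 600 bp (0.061) and with replicate 1 alone (0.098), and in replicate 2 at 1e-10 (−0.015), 1e-20 (−0.097), 200 bp (−0.084), a perfect ERE (−0.062), 2 mismatches (−0.011), distal regions only (−0.022) and replicate 2 alone (−0.059).

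The upstream difference lost its call at 1e-10 (3.20 points), 1e-20 (3.03), with a perfect ERE (3.37), 2 mismatches (2.00), the 9-bp AP1 site (1.58) and coding TSSs (−0.047), and was 2.26 to 4.21 with a replicate alone, with the call lost for replicate 1. The difference beyond 100 kb was −1.08 with 200 bp, 5.18 with the 9-bp site and 5.95 with coding TSSs, the last 2 past 0.05. The intron difference was 0.31 with a perfect ERE and −4.23 with 2 mismatches. The excess of central AP1 sites lost its call at 1e-20 (2.89), with 200 bp (4.83) and the 9-bp site (4.997). The induced-gene difference passed 0.05 with 2 mismatches (−2.38). The repressed-gene difference, which never passed, changed sign at 1e-10 (−0.27), 1e-20 (−0.74), 200 bp (−0.042), 600 bp (−0.28), a perfect ERE (−0.20), the 9-bp site (−0.14), coding TSSs (−0.26) and with EREs sought in the whole region (−0.086), and was −0.32 to 0.42 with a replicate alone. No paired analysis was possible because only the ChIP group has replicates. EREs sought in the whole region and distal regions only were chosen after seeing the data. The models of Gm20388 and Fgfr2 in the annotation span 4435 and 3009 kb and were the only host of 5 members counted as intronic, and without them and the 12 such ERE regions the intron difference was −6.35 points (exact p = 0.00301). Peak lists without read counts limit every comparison to the called peaks.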
